A study of Mus musculus with 6 samples.

Results

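Autophagy and lysosome genes were followed in presomitic mesoderm, the unsegmented tail tissue of the mouse embryo that gives rise to somites, after deletion of Taf10. The members were 10 listed genes, Ulk1, Ulk2, Becn1, Atg5, Atg7, Sqstm1, Tfeb, Lamp1, Ctsb and Ctsd, and each was read by 1 probe set that carries no other gene symbol. All 10 were measured, of 15153 genes measured in all. The mutant embryos were TCre/+;Taf10flox/flox, with both Taf10 alleles floxed and the T-Cre driver, whose T promoter is active in the primitive streak and the mesoderm that leaves it. The control embryos, labelled WT, were Taf10Flox/+ or Taf10flox/flox, so that a floxed allele was shared by both groups. All embryos were at E9.5 with 17 to 19 somites. Each array read the RNA of 3 pooled presomitic mesoderms, with 3 mutant and 3 control arrays, and the pools are labelled as biological replicates. The question is what the loss of TAF10, a subunit of both the general factor TFIID and the coactivator SAGA, changes in these cells.

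Of the 10 genes, Ulk2, Ctsb and Ulk1 rose in the mutant and 0 fell by limma (adjusted p under 0.05 over all 16311 probe sets tested). Ulk2, a kinase that starts autophagy, rose 2.09-fold, the lysosomal protease gene Ctsb 1.31-fold and the kinase gene Ulk1 1.22-fold (n = 3 pools per genotype). The other 7 genes did not pass, and of these Lamp1, Atg5, Ctsd and Tfeb had changes under 0.1 on the log2 scale. An unadjusted p under 0.05 was reached by 4 members that were higher, with Sqstm1 as the fourth, and by 0 that were lower. Such values were common over all probe sets: the limma p of Atg7, 0.0513, was only the 3772nd smallest of 16311. Among all measured genes 5.92% were called at an adjusted p under 0.05, 2.96% higher and 2.96% lower.

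Autophagy is the route by which a cell wraps part of its cytoplasm in a double membrane, the autophagosome, and delivers it to the lysosome to be digested. The ULK kinases start the process when the growth kinase mTORC1 is off, a lipid kinase complex built on Beclin 1 marks the site, and an ATG conjugation system attaches LC3 and its relatives to the growing membrane. SQSTM1, also called p62, links ubiquitinated cargo to LC3 and is itself degraded with it. TFEB is the transcription factor best known for raising autophagy and lysosome genes together, and it binds the CLEAR element, whose core is the E-box CACGTG. In mammals several autophagy genes, ULK1 and ULK2 among them, are also described as targets of p53.

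The letters before the start sites are shown because they show which members hold the E-box core of TFEB's element near the start of transcription. Windows from RefSeq on GRCm38.p6 (250 bases before to 50 after a start) matched 8 of the 10 members, and Becn1 and Ctsb were not matched. CACGTG, which reads the same on both strands, was in the windows of Atg5, Atg7, Lamp1 and Ctsd, and in none of those of Ulk1, Ulk2, Sqstm1 and Tfeb. Of all 32851 windows in the table, 7.15% held it. The lines give the 100 bases before the start of Ulk1 (chr5:110810082-110810181, minus strand), Ulk2 (chr11:61855093-61855192, minus strand), Sqstm1 (chr11:50210821-50210920, minus strand), Atg5 (chr10:44268239-44268338, plus strand), Lamp1 (chr8:13159061-13159160, plus strand) and Ctsd (chr7:142387828-142387927, minus strand), with CACGTG in capitals.
Ulk1: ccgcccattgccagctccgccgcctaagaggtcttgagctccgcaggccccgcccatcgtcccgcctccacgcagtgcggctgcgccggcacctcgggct
Ulk2: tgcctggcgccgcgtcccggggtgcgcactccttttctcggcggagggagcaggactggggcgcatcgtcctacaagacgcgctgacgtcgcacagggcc
Sqstm1: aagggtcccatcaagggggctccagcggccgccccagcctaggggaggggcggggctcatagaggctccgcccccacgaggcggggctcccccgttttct
Atg5: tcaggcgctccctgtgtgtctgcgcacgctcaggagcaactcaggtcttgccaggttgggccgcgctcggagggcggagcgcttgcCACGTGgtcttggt
Lamp1: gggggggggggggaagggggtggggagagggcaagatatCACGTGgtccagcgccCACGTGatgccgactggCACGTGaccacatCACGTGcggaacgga
Ctsd: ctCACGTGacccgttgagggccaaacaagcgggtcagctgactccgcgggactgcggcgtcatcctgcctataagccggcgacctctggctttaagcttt
Lamp1 held 4 copies, which begin at -61, -45, -28 and -15 relative to the start, and 8 of all windows (0.0244%) held 4 or more. Ctsd held 2, at -245 and -98, Atg5 had 1 at -14 and Atg7 1 at -132. The full CLEAR element, with GT before the core and AC after it, was in 0 of the 8 members' windows and in 0.326% of all windows. A match describes these letters and says nothing of binding, and no match says only that the letters are not in this window.

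The state of the pools bears on every value below. Median intensities were alike, from 307.9 to 317.5. Mutant 3 lay apart from the other arrays, at a root mean square distance of 0.184 log2 units from its group mean against 0.0762 to 0.112 for the rest. Taf10 was read by 2 probe sets that disagreed: one fell, at 10.18 to 10.40 in the mutants against 10.61 to 10.77 in the controls (log2 change -0.37, limma adjusted p = 0.0400), and the other did not pass (log2 change 0.11, adjusted p = 0.530). Which part of the transcript each reads is not known here, so neither checks the deletion. Xist, an RNA made by the inactive X of female cells, was at 6.32 in control 3 and at 11.3 to 12.6 elsewhere, so sex was not balanced between the pools. As a covariate Xist mostly marks control 3, so the fits with it below cannot correct for sex across the pools. Markers of presomitic mesoderm varied widely in level. Tbx6, among the brightest of the 10 measured, stood at 12.6 ± 0.15 in the mutants and 11.98 ± 0.10 in the controls (log2 level, SD, n = 3 each). The dimmest, Cyp26a1, had means of 6.24 in the mutants and 6.98 in the controls. In tissue RNA, fewer cells of a type and less RNA per cell cannot be told apart.

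Both initiation kinases rose, Ulk2 the most of all 10 members. ULK1 and ULK2 are related serine/threonine kinases that form a complex with ATG13 and FIP200. Ulk2 had log2 intensities of 9.38, 9.36 and 9.64 in the 3 mutant pools, against 8.38, 8.13 and 8.68 in the 3 control pools. All mutant pools lay above all control pools, with 0.69 between the lowest mutant and the highest control, and mutant 3 and control 3 were the highest of their groups. The change was 1.06 on the log2 scale (SE 0.14, 95% interval 0.74 to 1.39, limma adjusted p = 0.00848), and its p was the 131st smallest of 16311. Ulk1 stood at 10.05, 9.97 and 10.05 in the mutant pools, against 9.73, 9.67 and 9.79 in the control pools. Again the groups did not overlap, but the gap between them was 0.18. Ulk1 changed by 0.29 (SE 0.07, 95% interval 0.14 to 0.44, limma adjusted p = 0.0426), which lies close to the threshold. For each of these 2 genes the exact two-sided permutation test gave p = 0.1, the smallest that 3 against 3 allows.

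**Figure D1:**
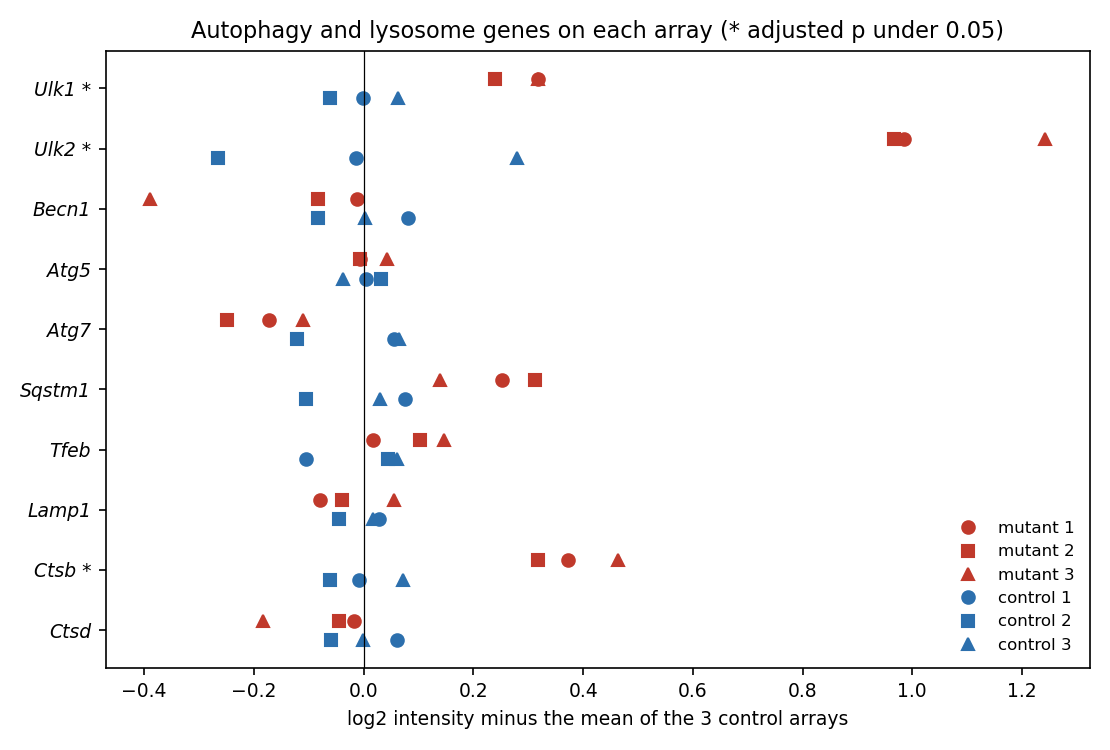
Log2 intensity of the 10 genes on each of the 3 mutant (red) and 3 control (blue) arrays, with the control mean set to 0 (x axis). Rows are genes, marker shapes give the replicate number, and stars stand beside the genes past an adjusted p of 0.05. The mutant points of Ulk2, Ulk1, Ctsb and Sqstm1 lie to the right of all their control points.

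The call of Ulk2 was lost without 1 array and that of Ulk1 without 5. With control 1 left out the adjusted p of Ulk2 was 0.0637, and with any other array left out it stayed between 0.00513 and 0.0482 (limma). The Ulk2 change itself ran from 0.93 without control 2 to 1.204 without control 3, and that of Ulk1 from 0.26 to 0.32 without the same arrays. Calls over all genes moved too, from 897 with all arrays to 41 without control 1 and 1945 without mutant 3. Ulk1 no longer passed without control 1 (0.162), control 2 (0.191), control 3 (0.0887), mutant 1 (0.113) or mutant 2 (0.0894), and passed without mutant 3 (0.0230). With the level of Xist as a covariate, the adjusted p was 0.0112 for Ulk2 and 0.0692 for Ulk1, and with eBayes set to trend and robust Ulk1 had 0.0512.

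The nucleation gene Becn1 encodes Beclin 1, the scaffold of the lipid kinase complex. It had log2 intensities of 9.19, 9.12 and 8.81 in the mutant pools, against 9.28, 9.12 and 9.20 in the control pools. Mutant 3 was low, and the other mutant pools fell within the range of the controls. Becn1 changed by -0.16 on the log2 scale and missed the threshold (SE 0.11, 95% interval -0.41 to 0.08, limma adjusted p = 0.403), and without mutant 3 the change was -0.05.

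Of the conjugation genes, Atg5 encodes the protein joined to ATG12, and Atg7 the E1-like enzyme that activates ATG12 and the LC3 family. Atg5 had log2 intensities of 9.13, 9.13 and 9.18 in mutant pools and 9.14, 9.17 and 9.10 in control pools. The groups were intermingled, and the log2 change of 0.01 had a 95% interval of -0.13 to 0.15, that is 0.914- to 1.11-fold (limma adjusted p = 0.939). Its sign turned in 5 of 16 alternative settings, with values from -0.026 to -0.0030. Atg7 had 8.68, 8.60 and 8.74 in mutant pools and 8.91, 8.73 and 8.92 in control pools. Mutants 1 and 2 lay below all controls, while mutant 3 lay above control 2. The change of Atg7 was -0.18 on the log2 scale and missed the threshold (SE 0.08, 95% interval -0.36 to 0.00132, limma adjusted p = 0.222).

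Sqstm1, the cargo receptor gene, had log2 intensities of 10.42, 10.48 and 10.31 in the mutant pools, against 10.24, 10.06 and 10.20 in the control pools. The 3 mutant values were above the 3 control values by a gap of 0.06. With a log2 change of 0.23 (SE 0.08, 95% interval 0.05 to 0.41) it did not pass limma (adjusted p = 0.123). The adjusted p was 0.0332 without mutant 3, the array that stood apart, and between 0.217 and 0.374 without each of the other 5 arrays in turn. SQSTM1 protein is turned over by autophagy, and its mRNA level does not measure that turnover.

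Tfeb was read at 7.22, 7.30 and 7.35 in mutant pools and at 7.10, 7.25 and 7.26 in control pools. Control 2 and control 3 lay between mutant 1 and mutant 2, so the groups overlapped. The log2 change of 0.09 (SE 0.07, 95% interval -0.08 to 0.26) did not pass (limma adjusted p = 0.504). Tfeb was the dimmest member, and the only member below the 40th percentile of mean level. TFEB is controlled largely by phosphorylation and nuclear entry, which an mRNA level does not show.

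Lamp1, the gene of an abundant glycoprotein of the lysosomal membrane, had 11.10, 11.14 and 11.24 in mutant pools against 11.21, 11.14 and 11.20 in control pools. The groups overlapped fully, with mutant 1 the lowest and mutant 3 the highest of the 6 arrays. Its log2 change of -0.02 had a 95% interval of -0.17 to 0.13, or 0.886- to 1.10-fold (limma adjusted p = 0.871), and the sign turned after quantile normalization and without mutant 1. The 4 E-box cores printed above for Lamp1 stand beside this small change.

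Of the lysosomal proteases, Ctsb rose and Ctsd did not pass. Ctsb encodes cathepsin B, a cysteine protease, and Ctsd cathepsin D, an aspartic protease. Ctsb had log2 intensities of 9.80, 9.74 and 9.89 in the mutant pools, against 9.42, 9.37 and 9.498 in the control pools. The groups were separated by 0.25, and the spread within each was small (SD 0.07 in mutants and 0.07 in controls). Ctsb changed by 0.38 (SE 0.07, 95% interval 0.22 to 0.55, limma adjusted p = 0.0237), the 429th smallest p. Ctsd had 9.65, 9.62 and 9.48 in mutant pools and 9.72, 9.60 and 9.66 in control pools. Mutant 3 was low and the other values were mixed, with a log2 change of -0.08 (SE 0.07, 95% interval -0.25 to 0.09, limma adjusted p = 0.529). The call of Ctsb held without mutant 3 (adjusted p = 0.0108) and with Xist as a covariate (0.0399), and was lost without any of the other 5 arrays, with adjusted p from 0.0523 without mutant 2 to 0.127 without control 2.

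Cathepsin B is abundant in macrophages, whose markers were read beside it. Of 8 measured macrophage and leukocyte markers limma called 0, with 0 also at an unadjusted p under 0.05, and their log2 changes ran from -0.07 to 0.12. Their summed level, as log2 of summed intensities, was 9.98 to 10.07 in mutant pools and 9.93 to 9.96 in control pools, so that the sums did not overlap. Such a sum is weighted to the brightest of the 8, Cd68, whose groups overlapped. Cd68 stood at 8.43 ± 0.03 in the mutants and 8.32 ± 0.11 in the controls (SD, n = 3 each). Taken singly, 1 of the 8 markers had groups that did not overlap. The pan-leukocyte gene Ptprc, with the largest change of the 8, was dim and its groups overlapped. It stood at 5.74 ± 0.18 in the mutants and 5.63 ± 0.03 in the controls (SD, n = 3 each). The part of these cells in the Ctsb result was not tested.

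**Figure D2:**
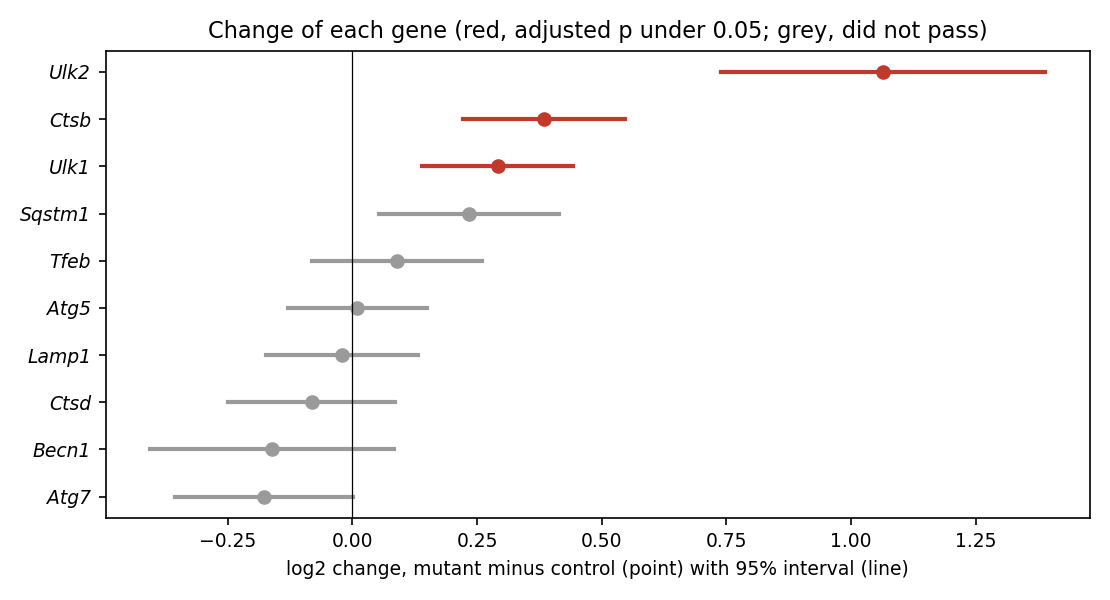
Log2 change, mutant minus control, of each of the 10 genes (points) with its 95% interval from limma (lines), ordered by size. Red marks the genes with an adjusted p under 0.05, Ulk2 at 1.06, Ctsb at 0.38 and Ulk1 at 0.29, and grey the 7 that did not pass.

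Members of a like role were set against each other on the same array, which cancels whatever moves both probe sets alike. Levels of different probe sets cannot be compared, so only the shift between genotypes counts. Ulk2 minus Ulk1 was -0.67, -0.60 and -0.41 in the mutant pools, against -1.35, -1.54 and -1.12 in the control pools. The difference shifted by 0.77 in favour of Ulk2 and the groups did not overlap (exact two-sided permutation p = 0.1, adjusted p = 0.15 over 3 pairs). Ctsb minus Ctsd was 0.15, 0.13 and 0.41 in mutant pools against -0.31, -0.24 and -0.16 in control pools, a shift of 0.47 with no overlap (exact permutation p = 0.1, adjusted p = 0.15). Atg7 minus Atg5 shifted by -0.19 with overlapping groups (exact permutation p = 0.2, adjusted p = 0.2). With 3 arrays a group no pair could have reached an unadjusted p under 0.1. The 3 pairs were chosen after their values were seen, and neither the p-values nor their adjustment allow for that choice.

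**Figure D3:**
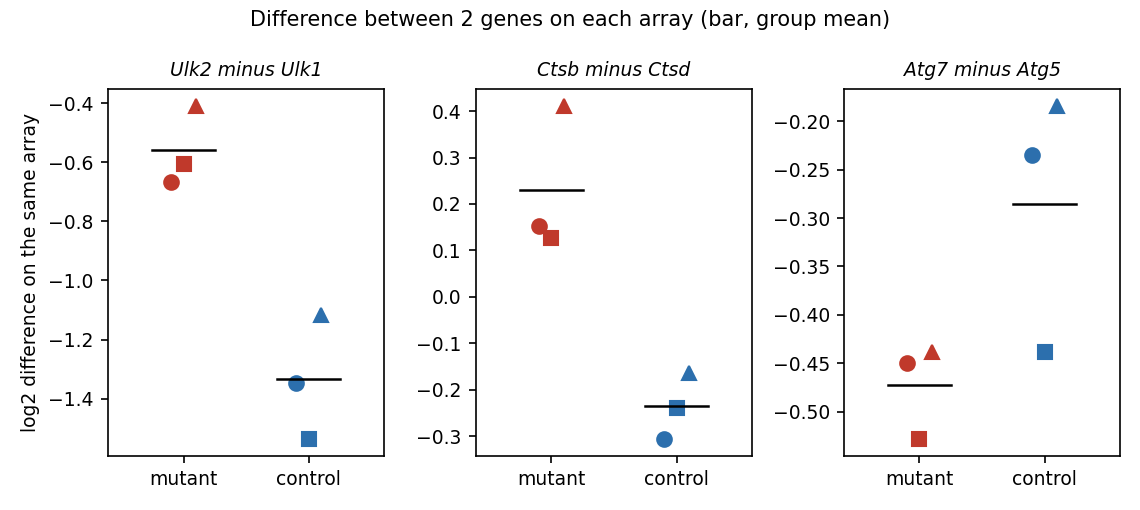
Difference in log2 intensity between 2 genes of like role on the same array (y axis), for the 3 mutant (red, left) and 3 control (blue, right) arrays, with marker shapes for replicates 1 (circle), 2 (square) and 3 (triangle) and a bar at each group mean. Mutant points lie above control points for Ulk2 minus Ulk1 and for Ctsb minus Ctsd, and the groups overlap for Atg7 minus Atg5.

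As a group the 10 genes had a median log2 change of 0.05, against 0.03 over all genes, and 6 of 10 changes were positive. Mutant and control values did not overlap for 4 members, Ulk1, Ulk2, Sqstm1 and Ctsb, all higher in the mutant, and for 0 members lower in the mutant. Among all genes 32.3% did not overlap, 17.2% higher and 15.1% lower in the mutant. Ulk2, Ctsb and Ulk1 rose as single genes, and the middle of the group lay near that of all genes.

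The wider machinery was described with 13 lists by role, which held 152 genes beside the members, 140 of them measured. Of these 8 rose and 1 fell (5.71% and 0.714%, against 2.96% in each direction over all genes), and their median log2 change was 0.06. The 8 include Trp53inp1 and Sesn2, whose rises were known when their list was drawn up. All lists were chosen with earlier results known, so these shares are no independent evidence. With control arrays left out one at a time, 0 rose without control 1, 1 without control 2 and 2 without control 3. With a mutant array left out, 4 rose if it was mutant 1, 3 if mutant 2 and 22 if mutant 3. The number that fell was 4 without mutant 3, 1 without mutant 2 and 0 without each of the other arrays. These counts therefore depend on single arrays.

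Autophagy genes proper were counted list by list, beside the 5.92% called over all genes. In lists this short a count of 0 lies near that share. The ULK complex had 4 measured genes, of which Ulk1 and Ulk2 rose. Its subunit gene Atg13 did not pass, with 9.69, 9.79 and 10.28 in mutant pools against 9.69, 9.60 and 9.68 in control pools. Limma called 0 of 7 genes of the Beclin 1 complexes, 0 of 8 of the ATG9, ATG2 and WIPI group that supplies lipid, 0 of 11 of the conjugation machinery, 0 of 5 of the LC3 and GABARAP family and 0 of 10 cargo receptors. At an unadjusted p under 0.05 these lists gave 0, 0, 2, 0 and 3 genes higher and 2, 0, 0, 0 and 1 lower. Such values were common over all probe sets, where the limma p of Atg7, 0.0513, ranked only 3772nd of 16311. The Beclin 1 list had the lowest median, -0.16. In it Uvrag, a partner of Beclin 1, had 8.36, 8.31 and 8.02 in mutant pools against 8.81, 8.68 and 8.44 in control pools, and did not pass (log2 change -0.41, limma adjusted p = 0.0939).

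**Figure D4:**
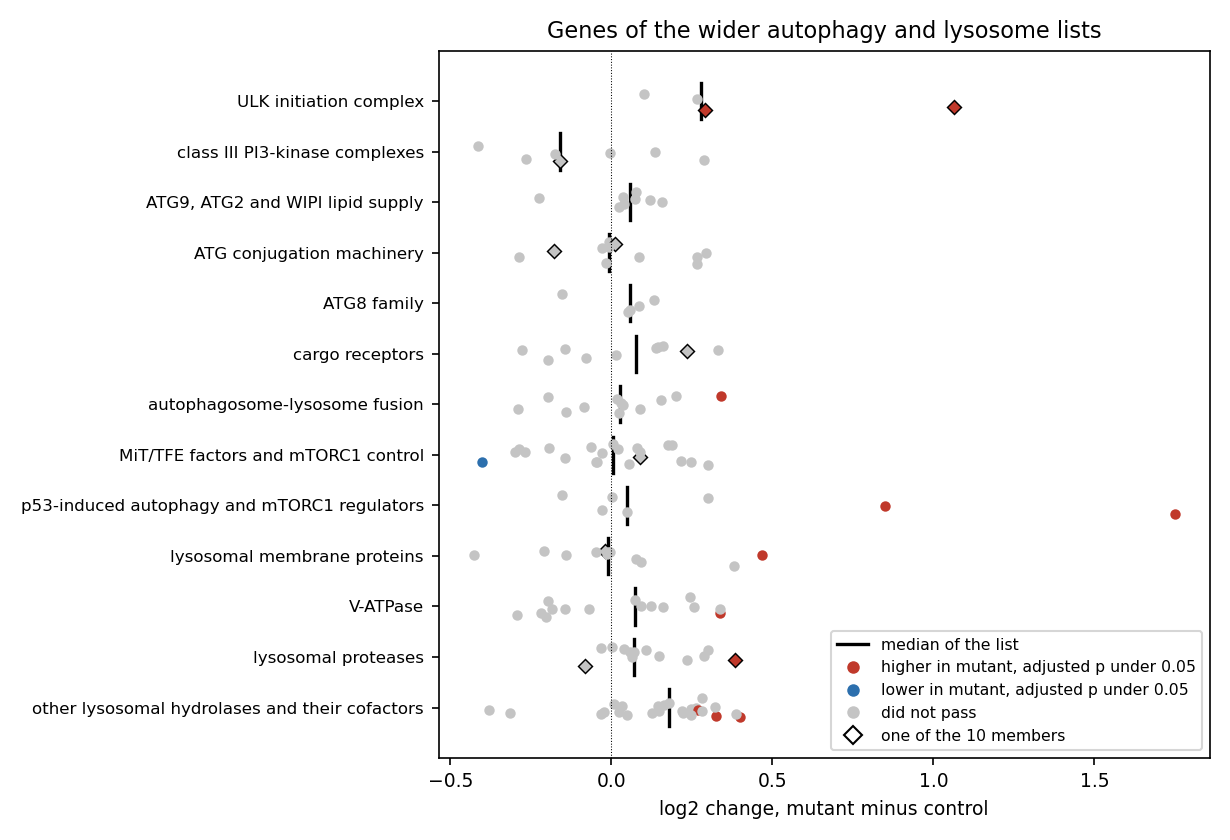
Log2 change, mutant minus control (x axis), of every measured gene in the 13 lists by role (rows), with a bar at each list's median. Red points rose and the blue point fell at an adjusted p under 0.05, grey points did not pass, and diamonds are the 10 members. Trp53inp1 lies farthest to the right at 1.75, then Ulk2 at 1.06 and Sesn2 at 0.85.

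Fusion of autophagosomes with lysosomes was represented by 12 measured genes, of which 1 rose. Snap29, a SNARE that pairs with syntaxin 17 in this step, had 9.25, 9.27 and 9.43 in mutant pools against 8.92, 8.96 and 9.05 in control pools (log2 change 0.34, SE 0.07, limma adjusted p = 0.0389). Of 21 genes of the TFEB family and mTORC1 control, Rragd fell. RRAGD is a Rag GTPase that brings mTORC1 and TFEB to the lysosome. Rragd stood at 9.21, 9.29 and 9.04 in mutant pools against 9.58, 9.63 and 9.55 in control pools, and its log2 change was -0.40 (SE 0.08, limma adjusted p = 0.0292). Without mutant 3 both still passed (adjusted p = 0.0182 for Snap29 and 0.00955 for Rragd). The call of Snap29 was lost without any other array (0.0695 to 0.169), and that of Rragd without any control or mutant 1 (0.0653 to 0.145). With Xist as a covariate neither passed (0.0544 for Snap29 and 0.0570 for Rragd).

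Of 7 measured regulators of autophagy and mTORC1 that p53 is known to induce, 2 rose and 5 did not pass. Trp53inp1, whose product binds LC3, had 10.60, 10.72 and 10.38 in mutant pools against 8.66, 8.43 and 9.37 in control pools (log2 change 1.75, SE 0.22, limma adjusted p = 0.00758). Sesn2, a leucine sensor that restrains mTORC1, had 9.22, 9.08 and 9.67 in mutant pools against 8.42, 8.32 and 8.68 in control pools (log2 change 0.85, SE 0.16, limma adjusted p = 0.0245). In both genes, as in the members Ulk2, Ulk1 and Ctsb, control 3 was the highest control. The same held for Snap29, Atp6v0a1, Sgsh, Neu1 and Arsa, so it is not particular to this list. In Slc17a5 control 3 was the lowest control. Dram1, a lysosomal membrane protein gene described as a p53 target, had a log2 change of 0.05 (limma adjusted p = 0.676). Trp53inp1 missed the threshold without control 1 (adjusted p = 0.0605), and Sesn2 without control 1 or control 2 (0.126 for each). The list was drawn up with the rises of Trp53inp1 and Sesn2 already known, so its count is no independent evidence.

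Among lysosome genes beyond the members, 5 rose and 0 fell by limma, all named here and below. Their lists held 12, 15, 13 and 25 measured genes, with the members Lamp1, Ctsb and Ctsd among them. Over all genes 2.96% were called in each direction. These lists too were chosen with earlier results known, so the counts are no independent evidence. Of 12 membrane protein genes Slc17a5 rose, the sialic acid exporter sialin, at 9.47, 9.52 and 9.60 in mutant pools against 9.08, 9.13 and 8.98 in control pools (log2 change 0.47, SE 0.07, limma adjusted p = 0.0132). Its call was lost without control 1 (0.0797), control 2 (0.0675) or control 3 (0.0529), and that list's median was -0.01. Of 15 genes of the V-ATPase, the proton pump that acidifies the lysosome, Atp6v0a1 rose by 0.34 (SE 0.07, limma adjusted p = 0.0393; list median 0.07), and passed with 1 array left out only where that was mutant 3 (0.0245). With Xist as a covariate it did not pass (0.0553). Of 13 proteases Ctsb alone rose, with 11 of 13 changes positive and a median of 0.07.

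The 25 other measured hydrolases and cofactors had the highest median of the lysosomal lists, 0.18, with 21 positive changes, 3 that rose and 0 that fell by limma. Over all genes 8993 of 15153 changes were positive, and 2.96% were called in each direction. An unadjusted p under 0.05 was reached by 10 higher and 2 lower genes of the list. Such values were common: over all probe sets the limma p of Atg7, 0.0513, was only the 3772nd smallest of 16311. Sgsh, a heparan sulfate sulfatase, had 8.68, 8.68 and 8.91 in mutant pools against 8.28, 8.32 and 8.46 in control pools (log2 change 0.40, SE 0.09, limma adjusted p = 0.0407). Neu1, a sialidase, changed by 0.33 (SE 0.07, adjusted p = 0.0440), and Arsa, which encodes arylsulfatase A, by 0.27 (SE 0.06, adjusted p = 0.0494). The groups of these 3 genes did not overlap. The call of Sgsh held with 1 array left out only where that was mutant 3 (adjusted p = 0.0193), that of Neu1 where it was mutant 3 (0.0290) or mutant 1 (0.0431), and that of Arsa where it was mutant 3 (0.0260). Over all alternatives Arsa passed in 4 of 15. With Xist as a covariate Neu1 (0.0817) and Arsa (0.0901) missed the threshold, as did Sgsh after quantile normalization (0.0503) and Neu1 after median centring (0.0551). The median of the list's deviations from the control mean was 0.13, 0.15 and 0.24 in mutants 1, 2 and 3. The median shift of each whole array from the controls was 0.007, 0.014 and 0.074, so part of the value of mutant 3 was shared by the array. The summed macrophage markers given beside Ctsb were higher in every mutant pool too, though limma called 0 of the 8. Their part in this list was not tested.

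The E-box core printed above was also counted in the wider machinery. Of 117 role-list genes beside the members that had a window, 25 (21.4%) held CACGTG, against 10.7% of 11935 measured genes with a window. Of those 25 genes 2 rose (8%), Sgsh and Arsa, and the median log2 change was 0.12. With 1 array left out, both calls held only where that was mutant 3. Of the 92 without the core 5 rose (5.43%) and 1 fell, with a median of 0.06. Over all measured genes with the core 42 rose (3.29%) and 47 fell, with a median of 0.02. Without it 313 rose (2.94%) and 291 fell, with a median of 0.04. No test was made of these shares.

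Other cell types that a dissected pool could hold were read by their markers. Limma called 0 of 8 endothelial, 0 of 7 erythroid, 0 of 7 neural tube, 0 of 10 gut, notochord and surface epithelium, and 0 of 7 visceral endoderm and yolk sac markers. At an unadjusted p under 0.05 these gave 0, 0, 1, 0 and 0 higher and 0, 0, 0, 1 and 1 lower. Such values were common over all probe sets, as the rank of Atg7 given above shows. Summed levels of erythroid markers ranged from 12.03 to 14.04 in mutant pools and from 13.21 to 14.47 in control pools, and those of endothelial markers from 9.68 to 10.65 in mutant pools and from 9.88 to 11.12 in control pools. Presomitic markers summed to 14.52 to 14.64 in mutant pools and 14.18 to 14.28 in control pools. Of 10 such markers Tbx6 and Hes7 rose and Cyp26a1 fell. The part of these shifts in the changes of Ulk2, Ulk1 and Ctsb was not tested.

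**Figure D5:**
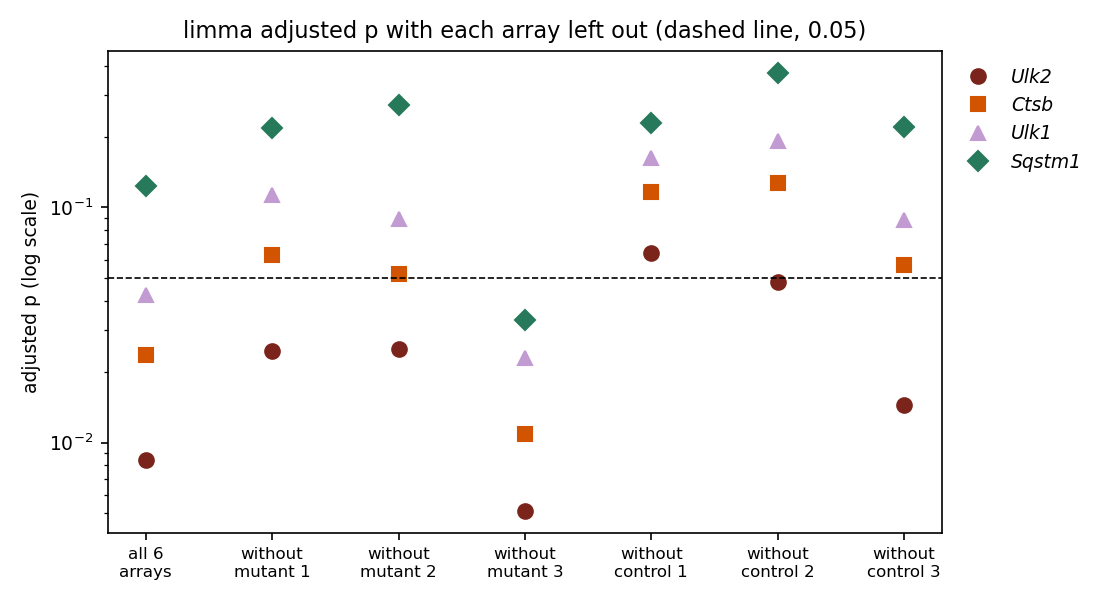
Adjusted p from limma (y axis, log scale) for Ulk2, Ctsb, Ulk1 and Sqstm1 with all 6 arrays and with each array left out in turn (x axis). The dashed line is 0.05. All 4 genes lie below it without mutant 3, and Ulk2 lies above it only without control 1, at 0.0637.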

How the data were processed

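RNA of 6 pools was hybridised to arrays after 150 ng of total RNA had been turned into biotinylated cDNA, per the labels' protocols. The deposited intensity values were made with RMA, per the submitters' processing notes, and are on a linear scale from 20.5 to 21070. The sources used here do not state the RMA version, the chip description or any filter. The log2 of each value was taken, without further scaling and without leaving out dim probe sets. Of 18064 probe sets, 16311 carried 1 gene symbol, 734 several and 1019 none, from the platform annotation. A limma model (version 3.58.1, R 4.3.3, functions lmFit and eBayes, mutant minus control, no covariate) was fitted to these 16311, with p-values adjusted by Benjamini and Hochberg over all of them. A gene was called at an adjusted p under 0.05 and stood for by its probe set of highest mean. No set test was run. The fit was tested on simulated data. The number of arrays limits the precision, and the spread that the p-values measure is that between pools.

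The members and lists were chosen with earlier results of these data known. Named genes are the 10 members, from each list up to 2 called genes that rose and 2 that fell with the smallest p, and Taf10 and Xist. Arsa, Atg13, Uvrag, Dram1, Tbx6, Hes7, Cyp26a1, Cd68 and Ptprc were named after their values were seen, and so were the 3 pairs. Of 162 listed genes, 12 had no probe set with 1 symbol. Promoter windows are RefSeq's. Proteins of ULK1 and ULK2 were not used here. Alternatives were a replicate block, quantile normalization, median centring, a filter at the 40th percentile of level, all probe sets, eBayes with trend and robust, array weights, Xist as a covariate, the mean of a gene's probe sets, each array left out, and control 3 and mutant 3 left out together.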

Additional observations from a re-analysis of the deposited data

How the results depend on the processing

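Over 16 alternatives, 135 of 159 values of the 10 members kept their direction and their side of the threshold, 13 kept the direction and lost the call, 4 gained one and 7 turned in sign. Tfeb has 1 value fewer, since the filter on level left it out. The changes of Atg5 and Lamp1 that turned were near 0. For Atg5 they were -0.014 with array weights, -0.0030 with Xist as a covariate, -0.0092 without control 3, -0.0074 without mutant 3 and -0.026 without control 3 and mutant 3 together, and with 1 array left out its change ran from -0.0092 to 0.026. For Lamp1 the change was 0.0091 after quantile normalization and ran from -0.059 to 0.0077 (without mutant 1) with 1 array left out. Ulk2 passed in 15 of 16 alternatives, Ctsb in 11, Ulk1 in 9, Sqstm1 in 3 and Atg7 in 1. Members that rose numbered 0 to 4 with 1 array left out (0 without control 1, 1 without control 2, control 3, mutant 1 or mutant 2, 4 with Sqstm1 added without mutant 3), and with array weights 1 member, Atg7, fell. All genes called, 897 with all arrays, were 3608 with array weights, 514 with Xist, 2125 without control 3 and mutant 3 together, and 41 to 1945 with 1 array left out. Role-list genes that rose, 8 with all arrays, were 14 after quantile normalization, 33 with array weights, 4 with Xist, 18 without control 3 and mutant 3 together, and 0 to 22 with 1 array left out. Those that fell, 1 with all arrays, were 13 with array weights, 0 with Xist, 6 without the 2 arrays together, and 0 to 4 with 1 left out. The cause was not tested. With the replicate number as a block, 3 role-list genes fell, 11 rose and 3 members rose. Whether the numbers pair the samples was not settled. Deviations of same-numbered arrays correlated at 0.13, 0.08 and 0.32, and of the 3 numbers only in the third did both arrays correlate best with their own. With 3 arrays a group, and mutant 3 apart from the rest, such correlations cannot exclude pairing.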
